A study of Mus musculus with 4 samples.

Results

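The cytochrome P450 genes of families 1, 2 and 3 were compared between 2 WT livers and 2 livers of hepatocyte conditional Brg1 knockout mice (Brg1 LKO, labelled KO), all from mice given alcohol. The members were every entry of the deposited expression table named Cyp1, Cyp2 or Cyp3 with a single subfamily letter and a closing number, other than Cyp2e1, with a value above 0 in at least 1 liver. This gave 52 members of 22103 entries, of which 16853 entries were above 0 in at least 1 liver. The pattern matched 58 names, Cyp2e1 among them, and 5 others (Cyp2c65, Cyp2c66, Cyp2j11, Cyp2j12 and Cyp2w1) were listed at 0 in all 4 livers. The names Cyp3a41a, Cyp3a41b, Cyp2ab1 and Cyp2d37-ps fell outside the pattern. Brg1 LKO mice carry floxed Smarca4 alleles (Smarca4 f/f) and Alb-Cre, which is driven by the albumin promoter, so the deletion reaches hepatocytes while other liver cells keep the gene. The controls were WT littermates, and their allele makeup beyond WT is not given in the sources used here. Male mice of 8 weeks received the NIAAA regimen, in which a chronic ethanol liquid diet ends with an ethanol gavage, and the labels give 15 days of alcohol for all 4 mice. No mice without alcohol were in the series. Each library is whole liver RNA from 1 labelled replicate, and p-values measure only the spread between these samples.

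P450 enzymes of these families are heme proteins of the endoplasmic reticulum that oxidise drugs, toxicants, steroids, bile acids and fatty acids, with electrons passed from NADPH by Por. Their genes stand in clusters of near-copies that arose by duplication, and most are expressed chiefly in hepatocytes. Family 1 is known for induction by the aryl hydrocarbon receptor (AHR), and Cyp2b and Cyp3a genes for induction by the nuclear receptors CAR (Nr1i3) and PXR (Nr1i2). Several members differ between the sexes in mouse liver through the pattern of growth hormone release. Brg1 is an ATPase of a SWI/SNF chromatin remodelling complex.

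The results turned on small groups of neighbouring genes, so the promoters of 8 of them are printed first. The sequences come from RefSeq on GRCm38.p6 and run from 250 bases before to 50 after the annotated start. RefSeq windows were found for 44 of the 52 members, 47 windows in all, and none for Cyp2c44, Cyp2c54, Cyp2d12, Cyp2d22, Cyp2d34, Cyp2g1, Cyp2j7 and Cyp2u1.

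Cyp2b9, the member that passed the test, and its neighbour Cyp2b13 are shown because their windows were 99.3% identical over 300 bases. Capitals mark the 2 bases that differ. The windows are chr7:26173159-26173458 and chr7:26061245-26061544, both on the plus strand.
Cyp2b9 promoter: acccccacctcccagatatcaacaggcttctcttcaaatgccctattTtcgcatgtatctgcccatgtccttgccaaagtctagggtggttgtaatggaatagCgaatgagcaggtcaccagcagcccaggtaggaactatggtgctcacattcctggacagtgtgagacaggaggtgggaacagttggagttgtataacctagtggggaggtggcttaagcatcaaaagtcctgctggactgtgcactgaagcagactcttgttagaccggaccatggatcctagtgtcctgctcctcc
Cyp2b13 promoter: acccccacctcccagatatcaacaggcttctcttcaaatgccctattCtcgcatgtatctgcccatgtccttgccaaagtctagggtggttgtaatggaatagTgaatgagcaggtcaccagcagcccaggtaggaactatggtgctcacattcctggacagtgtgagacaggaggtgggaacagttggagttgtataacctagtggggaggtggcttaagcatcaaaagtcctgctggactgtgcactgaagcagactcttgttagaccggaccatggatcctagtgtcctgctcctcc

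Cyp3a11, Cyp3a16 and Cyp3a44 had lower values in both LKO livers than in both WT livers, and Cyp3a25 of the same cluster did not. All of them lie on the minus strand, at chr5:145879805-145880104 for Cyp3a11, chr5:145469674-145469973 for Cyp3a16, chr5:145805825-145806124 for Cyp3a44 and chr5:146009569-146009868 for Cyp3a25. Capitals mark the letters TGTTTAC (searched for FOXA factors) and CAAAGTCCA (searched for HNF4).
Cyp3a11 promoter: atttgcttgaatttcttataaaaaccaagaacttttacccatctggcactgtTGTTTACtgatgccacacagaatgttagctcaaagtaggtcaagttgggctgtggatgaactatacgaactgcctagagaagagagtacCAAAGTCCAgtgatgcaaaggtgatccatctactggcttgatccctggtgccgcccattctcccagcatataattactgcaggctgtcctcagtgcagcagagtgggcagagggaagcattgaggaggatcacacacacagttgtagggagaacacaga
Cyp3a16 promoter: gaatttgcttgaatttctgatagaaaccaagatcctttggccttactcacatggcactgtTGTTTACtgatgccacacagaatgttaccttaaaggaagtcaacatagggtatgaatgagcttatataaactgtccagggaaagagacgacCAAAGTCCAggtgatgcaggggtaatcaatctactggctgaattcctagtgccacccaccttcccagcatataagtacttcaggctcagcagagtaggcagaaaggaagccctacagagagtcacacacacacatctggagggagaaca
Cyp3a44 promoter: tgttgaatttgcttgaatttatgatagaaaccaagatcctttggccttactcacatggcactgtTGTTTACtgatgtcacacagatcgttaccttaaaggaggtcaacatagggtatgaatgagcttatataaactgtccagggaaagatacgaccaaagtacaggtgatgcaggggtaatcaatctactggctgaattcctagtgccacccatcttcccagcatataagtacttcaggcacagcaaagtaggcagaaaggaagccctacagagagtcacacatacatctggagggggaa
Cyp3a25 promoter: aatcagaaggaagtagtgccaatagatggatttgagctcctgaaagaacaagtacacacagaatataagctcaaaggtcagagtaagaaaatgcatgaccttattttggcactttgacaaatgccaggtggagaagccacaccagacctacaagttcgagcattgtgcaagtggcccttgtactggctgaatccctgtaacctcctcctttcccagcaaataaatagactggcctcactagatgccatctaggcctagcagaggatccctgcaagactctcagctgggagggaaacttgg

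Cyp2a4 and Cyp2a5 are shown because their levels moved together from liver to liver. Their windows, chr7:26306942-26307241 and chr7:26835089-26835388 on the plus strand, were 98.3% identical, and capitals mark the 5 bases that differ.
Cyp2a4 promoter: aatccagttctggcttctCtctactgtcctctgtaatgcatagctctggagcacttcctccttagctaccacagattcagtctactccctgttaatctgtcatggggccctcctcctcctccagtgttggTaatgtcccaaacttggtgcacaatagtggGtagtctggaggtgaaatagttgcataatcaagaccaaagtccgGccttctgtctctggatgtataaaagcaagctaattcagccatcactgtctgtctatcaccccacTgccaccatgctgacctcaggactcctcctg
Cyp2a5 promoter: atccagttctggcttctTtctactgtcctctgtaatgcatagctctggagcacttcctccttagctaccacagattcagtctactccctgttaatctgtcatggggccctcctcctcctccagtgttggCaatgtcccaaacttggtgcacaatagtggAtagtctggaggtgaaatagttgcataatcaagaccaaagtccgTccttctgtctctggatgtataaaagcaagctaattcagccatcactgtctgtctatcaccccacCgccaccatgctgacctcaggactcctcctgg

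Expression is given as FPKM, fragments scaled to transcript length and to the library total, which allows levels to be compared between genes. Library totals recovered from the steps of the low values were 72437065 to 80792876 reads, and the read numbers given below are estimates from those steps. The deposited values summed to 423422 to 476323 FPKM per liver. The 12346 genes whose mean reached 0.1 FPKM were tested with limma on log2(FPKM + 0.1). Fold changes are on that scale, LKO minus WT, which understates the change of low genes. The limma fit draws the spread of each gene towards that of genes at a similar level. Its SEs, intervals and p-values therefore do not rest on the 4 values of a gene alone. The threshold was that of the study, an unadjusted p under 0.05 with more than a 2-fold difference. With 2 livers against 2, an exact permutation test of a single value cannot give a two-sided p below 0.33. Smarca4, which encodes Brg1, was at 1.79 and 1.95 FPKM in WT and at 0.608 and 0.579 FPKM in the LKO livers (log2 fold change -1.50, SE 0.34, adjusted p = 0.9999 in limma). Its unadjusted limma p = 0.000548, while an exact permutation test of the 4 values gives its smallest p of 0.33. In bulk samples, fewer cells of a type and less RNA per cell cannot be told apart.

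Among the 52 members, 9 had a mean of at least 100 FPKM, 24 lay between 10 and 100, 7 between 1 and 10, 5 between 0.1 and 1, and 7 below 0.1 FPKM. The latter 7 were not tested, which left 45. Of these, 1 passed the threshold, Cyp2b9, lower in the LKO livers, against 0.543% of all genes tested that passed in that direction. No member passed it in the other direction, where the share among all genes was 0.437%. An unadjusted p under 0.05 was found for Cyp2b9 and Cyp2b10, both lower in LKO, and 0.980% of all genes had such a p in that direction. Cyp2b10 was no longer under 0.05 with a filter at 1 FPKM, after any of the 3 rescalings, or with eBayes without trend. Quantile normalization put Cyp3a11 and Cyp3a16 under 0.05. After Benjamini-Hochberg adjustment in limma, 0 of the 12346 genes and 0 members had a p under 0.05, while 247 genes had an unadjusted p under 0.05 (2.00%). The log2 fold change was below 0 for 27 of 45 members (53.9% of all genes) and above 0 for 18. Its median was -0.06 over the members and -0.02 over all genes. Both LKO livers lay below both WT livers for 8 members, Cyp1b1, Cyp2b9, Cyp2b10, Cyp2b13, Cyp2j6, Cyp3a11, Cyp3a16 and Cyp3a44, a pattern seen in 10.0% of all genes tested. Both lay above for Cyp2d22 and Cyp2j8, against 10.7% of all genes, so that 10 of 45 had no overlap in either direction (20.7% of all genes).

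**Figure D1:**
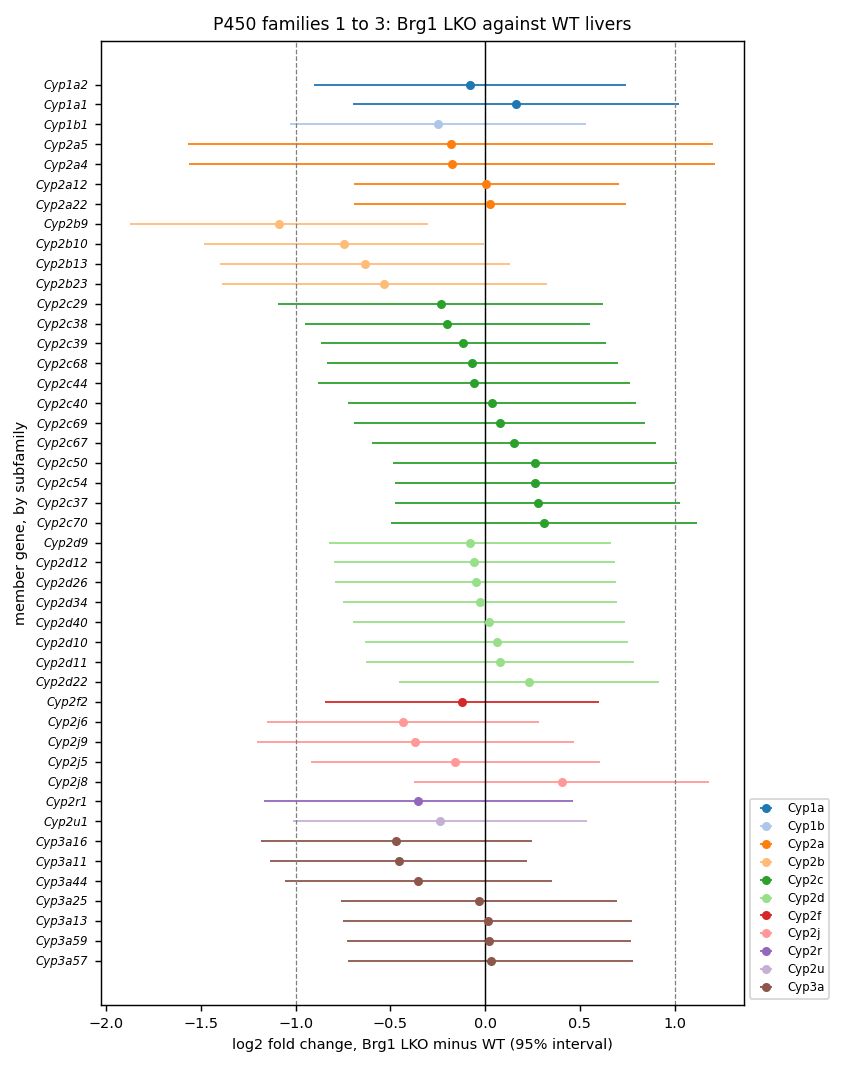
Log2 fold change of LKO against WT on the x axis (points, with 95% intervals as lines) for the 45 tested members on the y axis, coloured by subfamily, with dashed lines at 2-fold either way. The Cyp2b genes sit on the left, from -1.09 for Cyp2b9 to -0.53 for Cyp2b23, and the intervals of all members other than Cyp2b9 and Cyp2b10 cross 0.

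All 4 tested genes of the Cyp2b subfamily had a log2 fold change below 0, with a median of -0.69, and Cyp2b9 fell to 39.95% of its WT mean. Cyp2b enzymes hydroxylate steroids and many drugs, and Cyp2b10 is the gene most used to read CAR activity in mouse liver. Cyp2b9, a gene with female-biased expression, was at 0.665 and 1.09 FPKM in WT and at 0.314 and 0.389 FPKM in the LKO livers. They correspond to an estimated 101 and 164 reads against 46 and 53. Both LKO livers lay below both WT livers, with means of 0.880 ± 0.303 and 0.351 ± 0.0534 FPKM (SD, n = 2 livers each). On the log2 scale the difference was -1.09 (SE 0.37, 95% interval -1.87 to -0.30). The unadjusted limma p = 0.0103 and the adjusted p = 0.9999, and the exact permutation p is 0.33, its smallest value. The call was lost without WT replicate 2 (-0.77) and without LKO replicate 1, where the difference of -0.97 was under 2-fold, and it held without either of the other livers. With a pseudocount of 1 the difference was -0.47, also under 2-fold.

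Cyp2b10 was at 33.9 and 29.6 FPKM in WT and at 23.1 and 15.4 FPKM in the LKO livers, far above the other Cyp2b genes. The groups did not overlap, and the means were 31.75 ± 2.99 and 19.25 ± 5.47 FPKM (SD, n = 2). On the log2 scale it differed by -0.75 (SE 0.34, 95% interval -1.48 to -0.01), which is under 2-fold. The unadjusted limma p = 0.0477, the adjusted p = 0.9999, and the exact permutation p is again 0.33. LKO replicate 2 had the lowest value. With each liver left out in turn, the difference ranged from -1.04 without LKO replicate 1 to -0.45 without LKO replicate 2. Cyp2b13, also female-biased, was at 2.15 and 2.28 FPKM in WT and 1.77 and 1.09 FPKM in LKO, with no overlap and a log2 fold change of -0.63 (SE 0.36, 95% interval -1.40 to 0.13). Cyp2b23 was near the limit of detection at 0.135 and 0.194 against 0.140 and 0.0378 FPKM, an estimated 24 and 34 against 24 and 6 reads, and its groups overlapped. Cyp2b19, untested, was at 0.0818 and 0.120 against 0.0941 and 0.0405 FPKM. Summed over the 5 genes, Cyp2b levels were 36.9 and 33.3 FPKM in WT and 25.4 and 16.9 FPKM in LKO, a sum set mostly by Cyp2b10.

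**Figure D2:**
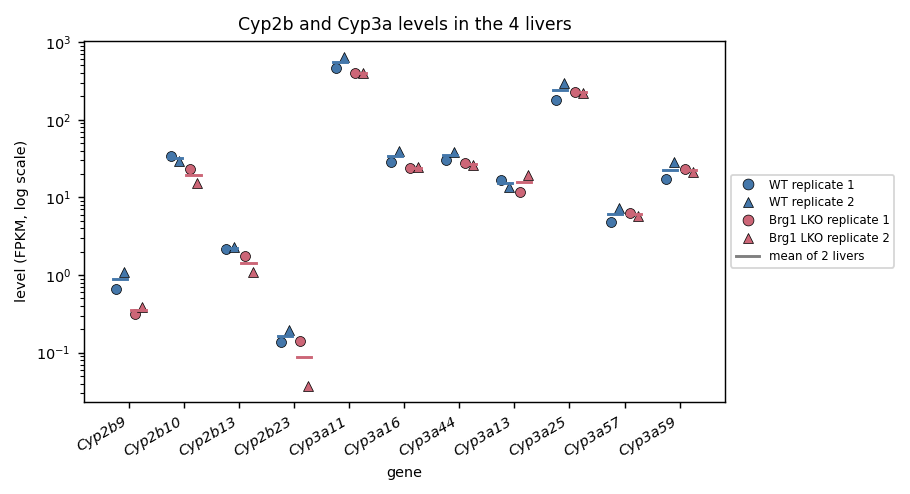
FPKM on a log axis for the tested Cyp2b and Cyp3a genes (x axis) in each of the 4 livers, with circles for replicate 1, triangles for replicate 2 and bars for the mean of 2 livers. Both LKO livers lie below both WT livers for Cyp2b9, Cyp2b10, Cyp2b13, Cyp3a11, Cyp3a16 and Cyp3a44, and not for Cyp2b23, Cyp3a13, Cyp3a25, Cyp3a57 and Cyp3a59.

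None of the 7 Cyp3a genes passed the threshold. For 3 of them both LKO livers lay below both WT livers (10.0% of all genes tested). The other 4 had log2 fold changes between -0.03 and 0.03. Cyp3a enzymes carry out much of hepatic drug oxidation and hydroxylate testosterone and bile acids. Cyp3a11, the member with the highest level of all, was at 466 and 640 FPKM in WT and at 401 and 395 FPKM in the LKO livers. Both LKO livers were below both WT livers, and the WT livers differed more from each other than the LKO livers did (553 ± 123 and 398 ± 4.27 FPKM, SD, n = 2). The difference on the log2 scale was -0.46 (SE 0.32, 95% interval -1.13 to 0.22, adjusted p = 0.9999 in limma). Cyp3a16 had 28.6 and 39.1 FPKM in WT and 23.9 and 24.4 FPKM in LKO (-0.47, 95% interval -1.18 to 0.25). Cyp3a44 had 30.5 and 38.9 FPKM in WT and 27.4 and 26.5 FPKM in LKO (-0.35, 95% interval -1.06 to 0.35). Both are known as female-biased genes. In the unscaled values both followed Cyp3a11 in that WT replicate 2 was the highest liver and the LKO livers were close together. The spread within groups depends on library scale. Median-ratio factors were 0.9109 and 1.1267 for WT replicates 1 and 2, and 0.8848 and 1.1078 for LKO replicates 1 and 2. Divided by these factors, the LKO livers lay further apart than the WT livers for Cyp3a11, Cyp3a16 and Cyp3a44.

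Cyp3a25 was at 179 and 300 FPKM in WT and 230 and 222 FPKM in LKO, so that both LKO livers lay between the WT livers (-0.03, 95% interval -0.76 to 0.69). For Cyp3a13 the values were 16.7 and 13.5 FPKM in WT and 11.9 and 19.3 FPKM in LKO (0.01, 95% interval -0.75 to 0.78). The LKO livers enclosed the WT livers there. Cyp3a57 and Cyp3a59 had log2 fold changes of 0.03 and 0.02. The Cyp3a sum was 744 and 1067 FPKM in WT and 724 and 715 FPKM in LKO, 34.0% and 32.6% of the summed level of all members in WT and 26.4% and 31.2% in LKO.

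Along chromosome 5 (GRCm38) the Cyp3a genes with lower LKO values were neighbours. In order of start position the tested genes were Cyp3a57 (145345287 to 145390926), Cyp3a16 (145436309 to 145469723), Cyp3a41b, Cyp3a41a, Cyp3a44 (145773983 to 145805874), Cyp3a11 (145854426 to 145879964), Cyp3a25 (145977196 to 146009617) and Cyp3a59. Cyp3a41a and Cyp3a41b, which are near-copies outside the naming pattern, had log2 fold changes of -0.52 and -0.53 (SE 0.33 each). The 5 genes from Cyp3a16 to Cyp3a11 each had both LKO livers below both WT livers (10.0% of all genes tested). Cyp3a41a and Cyp3a41b had nearly equal values in every liver, so the 5 are not independent observations. At the ends of the stretch the values were 0.03 for Cyp3a57, -0.03 for Cyp3a25 and 0.02 for Cyp3a59. This run was noticed in the values and was not tested. On chromosome 7, the order was Gm6434 (-0.48), Cyp2b10 (-0.75), Cyp2b13 (-0.63), Cyp2b9 (-1.09), Cyp2a4 (-0.18), Cyp2b23 (-0.53), Cyp2a5 (-0.18), Cyp2a22 (0.02), Cyp2a12 (0.01) and Cyp2f2 (-0.12). Cyp2b10, Cyp2b13 and Cyp2b9 lay next to each other among the tested genes, from 25897620 to 26210661.

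**Figure D3:**
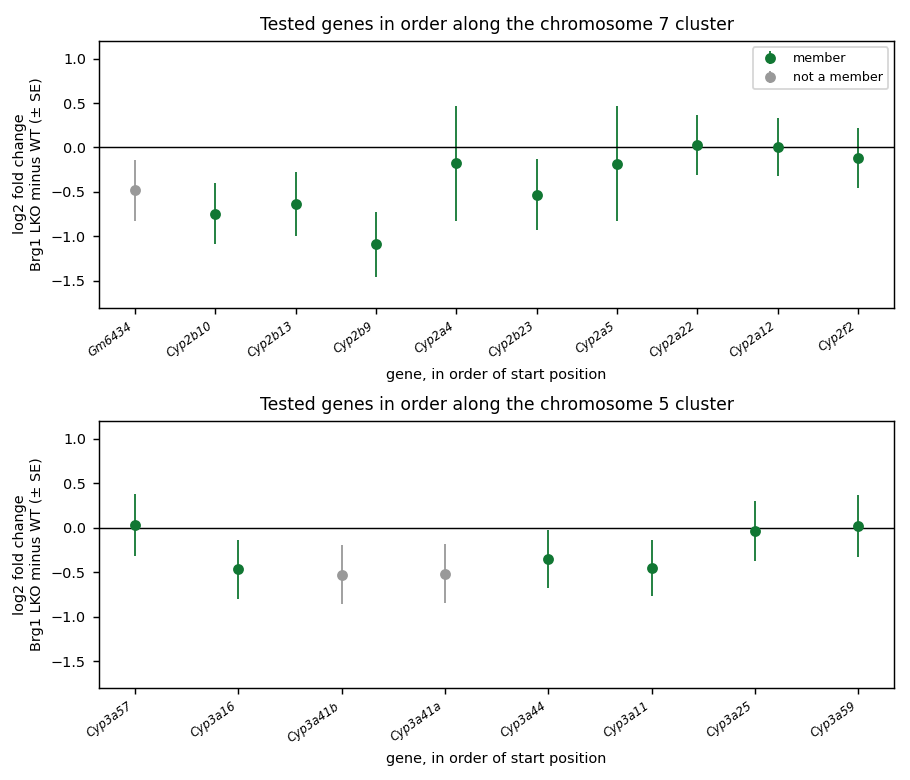
Log2 fold change of LKO against WT (y axis, ± SE) for the tested genes in order of start position along the Cyp2 cluster of chromosome 7 and the Cyp3a cluster of chromosome 5, with members in green and other genes in grey. Spacing on the x axis is by order, not by distance, and the lowest points are Cyp2b9 (-1.09) above and Cyp3a41b (-0.53) below.

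Promoter windows of the Cyp3a genes differed in how alike they were. Cyp3a16 and Cyp3a44 windows were 95.9% identical and Cyp3a11 and Cyp3a16 windows 82.2%, whereas Cyp3a11 and Cyp3a25 windows were 64.3% identical. Cyp3a25 and Cyp3a59 windows were 96.3% identical. The letters TGTTTAC began at -198, -190 and -186 from the start in Cyp3a11, Cyp3a16 and Cyp3a44, and CAAAGTCCA at -109 and -99 in Cyp3a11 and Cyp3a16. Neither was found in the Cyp3a25 window. Searched on both strands, TGTTTAC was in 7 of the 47 member windows (14.9%) and in 3.65% of all 32851 RefSeq windows, and CAAAGTCCA in 7 (14.9%) and in 0.475%. The 5 other genes with CAAAGTCCA were Cyp2c40, Cyp2c67, Cyp2c68, Cyp2c69 and Cyp2c70, none of which had groups without overlap. TGTTTAC was also in the windows of Cyp2c38, Cyp2c39 and Cyp2j5, whose groups overlapped too. TTCNNNGAA (STAT5) was in 0 member windows against 8.3% of all, and TTATGTAA (D-box), TTGCGCAA (C/EBP) and the HNF1 motif were in 0 against 0.938%, 0.183% and 0.399%. These matches describe the letters in the windows and were not tested against the fold changes.

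Cyp2a4 and Cyp2a5 gave the widest spread within groups of all tested members, and the spread did not follow genotype. Cyp2a5 is the coumarin hydroxylase of mouse liver, and Cyp2a4 a testosterone hydroxylase with female-biased expression. Cyp2a5 was at 65.4 and 250 FPKM in WT replicates 1 and 2 and at 246 and 51.5 FPKM in LKO replicates 1 and 2. Cyp2a4 was at 30.2 and 117 FPKM in WT and at 114 and 24.3 FPKM in LKO. WT replicate 2 and LKO replicate 1 were thus high and the other livers low for both genes. The ratio of the higher to the lower liver was 3.82 in WT and 4.78 in LKO for Cyp2a5, and 3.88 and 4.68 for Cyp2a4. Log2 fold changes were -0.18 for each, with SEs of 0.65 and adjusted p-values of 0.9999 in limma. Leaving out LKO replicate 1 put both past the threshold (-1.31 for Cyp2a5 and -1.29 for Cyp2a4), and leaving out LKO replicate 2 turned both to the other sign (0.94 and 0.93). Cyp2a12 was at 45.5 and 56.9 against 54.5 and 47.9 FPKM, and Cyp2a22 at 16.0 and 21.3 against 20.1 and 17.6 FPKM. Both had the same higher liver within each group as Cyp2a5, over a smaller range. The Cyp2a4 and Cyp2a5 transcripts were 98.3% identical, and 22.1% and 25.5% of their 75-base windows also occurred in another annotated transcript, so reads could be split between them and their separate levels are uncertain.

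**Figure D4:**
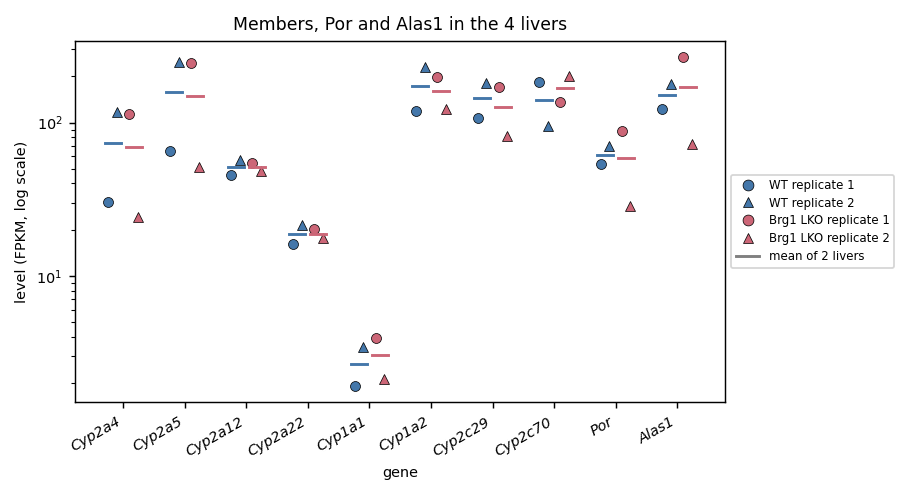
FPKM on a log axis in each of the 4 livers (circles replicate 1, triangles replicate 2, bars the mean of 2 livers) for 8 members and for Por and Alas1 (x axis). WT replicate 2 and LKO replicate 1 are the high livers for Cyp2a4, Cyp2a5, Cyp1a1, Cyp1a2 and Cyp2c29, Cyp2c70 shows the reverse order, and Por and Alas1 are highest in LKO replicate 1 and lowest in LKO replicate 2.

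That order of livers within groups recurred across the members. WT replicate 2 was above WT replicate 1 for 39 of 45 tested members and for 9912 of 12346 genes, and LKO replicate 1 was above LKO replicate 2 for 33 of 45 members and for 3307 of 12346 genes. The median log2 gap was 0.57 (WT replicate 2 minus 1) and 0.15 (LKO replicate 1 minus 2) over members and 0.27 and -0.30 over all genes. After median-ratio rescaling of the libraries, the gaps were 0.27 and 0.47 over members and -0.01 and -0.005 over all genes. For 30 of 45 members both gaps within groups were larger than the difference between groups, and this was so for 6759 of 12346 genes. Por, the reductase that feeds electrons to these enzymes, was at 53.5 and 69.8 FPKM in WT and at 88.2 and 28.4 FPKM in LKO. Alas1, the rate-limiting enzyme of heme synthesis, was at 122 and 179 FPKM in WT and 267 and 72.7 FPKM in LKO. The summed hepatocyte markers (9 of 10 in the table, none at 0) were at 28170 and 21770 FPKM in WT and 23630 and 26650 FPKM in LKO. The reverse order of this sum was shared by Alb, Apoa1, Apob, Serpina1a and Fgb, and not by Ttr, Cps1, Tat and Ass1. Their part in the order of the livers was not tested.

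In family 1, none of the 3 genes passed the threshold. Cyp1a2, the constitutive family 1 enzyme of the liver, was at 119 and 230 FPKM in WT and at 198 and 123 FPKM in LKO (log2 fold change -0.08, 95% interval -0.90 to 0.74). Cyp1a1, an AHR-inducible hydrocarbon hydroxylase that is low in liver without inducer, was at 1.92 and 3.43 FPKM in WT and 3.93 and 2.104 FPKM in LKO (0.16, 95% interval -0.70 to 1.02). Both genes had the same high and low livers as Cyp2a5. Cyp1b1 was at 0.159 and 0.151 against 0.122 and 0.107 FPKM, an estimated 66 and 62 against 49 and 40 reads. Its groups did not overlap in the unscaled values but did after median-ratio rescaling. Its log2 fold change was -0.25 (SE 0.36, 95% interval -1.03 to 0.53). The Cyp1a1 promoter window held GCGTG, the core letters bound by AHR, at -54 from the start. GCGTG was in 8 of 47 member windows (17%) and in 32.4% of all windows.

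The Cyp2c subfamily, with 12 of 13 genes tested, had a median log2 fold change of 0.06, a range from -0.23 to 0.31 and no gene whose groups were apart. Its enzymes oxidise arachidonic acid and drugs, and Cyp2c70 makes the muricholic acids of rodent bile. Cyp2c70 was at 185 and 95.3 FPKM in WT and at 135 and 201 FPKM in LKO (0.31, 95% interval -0.50 to 1.12). In it WT replicate 1 and LKO replicate 2 were the high livers, the opposite of Cyp2c29. Cyp2c29, a CAR and PXR target, was at 107 and 181 FPKM in WT and at 172 and 82.0 FPKM in LKO (-0.23, 95% interval -1.09 to 0.62). Cyp2c37, Cyp2c50 and Cyp2c54 had log2 fold changes of 0.28, 0.26 and 0.26, with LKO means above WT means and overlapping livers. Cyp2c54, the highest of these, was at 46.2 and 73.2 FPKM in WT and 75.1 and 64.8 FPKM in LKO. Female-biased Cyp2c69 was at 9.87 and 15.9 against 15.1 and 11.6 FPKM (0.08). Cyp2c40, Cyp2c69, Cyp2c67 and Cyp2c68 shared 57.1%, 43.2%, 36.0% and 28.5% of their 75-base windows with other transcripts and are uncertain as single genes.

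All 8 Cyp2d genes were tested and none passed, with a median log2 fold change of -0.004 and a range from -0.08 to 0.23. The subfamily is the mouse counterpart of the human drug-oxidising CYP2D6. Cyp2d10 had the highest level, 173 and 244 FPKM in WT and 212 and 217 FPKM in LKO (0.06, 95% interval -0.63 to 0.76), and it shared 26.7% of its windows with other transcripts. Cyp2d22 was at 45.2 and 50.1 FPKM in WT and at 57.1 and 54.5 FPKM in LKO. Both LKO livers were above both WT livers, with a log2 fold change of 0.23 (SE 0.32, 95% interval -0.46 to 0.92), and the groups overlapped after median-ratio rescaling or quantile normalization. Cyp2d9, male-biased and a testosterone hydroxylase, was at 93.0 and 140 FPKM in WT and 128 and 90.7 FPKM in LKO (-0.08). The Cyp2d sum was 512 and 724 FPKM in WT and 622 and 620 FPKM in LKO.

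In the Cyp2j subfamily, whose enzymes make epoxides of arachidonic acid, 4 of 6 genes were tested and none passed. Cyp2j5 was the highest, at 32.9 and 46.6 FPKM in WT and 28.2 and 43.7 FPKM in LKO (-0.16, 95% interval -0.92 to 0.60). Cyp2j6 was at 4.14 and 4.93 against 3.47 and 3.17 FPKM, without overlap (-0.43, SE 0.33, 95% interval -1.15 to 0.28). Cyp2j8 was at 0.261 and 0.190 against 0.381 and 0.282 FPKM, an estimated 32 and 23 against 45 and 31 reads, with both LKO livers higher (0.40, SE 0.36, 95% interval -0.37 to 1.18). The groups of Cyp2j8 overlapped after median-ratio rescaling or quantile normalization. Of the subfamilies with a lone tested gene, Cyp2f2, which activates naphthalene, was at 69.9 and 96.7 against 87.1 and 65.5 FPKM (-0.12). Cyp2r1, a vitamin D hydroxylase, was at 2.45 and 4.21 against 2.01 and 3.10 FPKM (-0.35), and Cyp2u1, a fatty acid hydroxylase, at 1.17 and 0.838 against 0.664 and 1.02 FPKM (-0.24). The livers overlapped for each of these.

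Grouped by known regulation, 1 of 8 genes on the list of P450 genes with female-biased expression passed the threshold (Cyp2b9, 0.543% of all genes in that direction), 7 of 8 had a log2 fold change below 0 (53.9% of all genes) and 6 had both LKO livers below both WT livers (10.0% of all genes). The median of the list was -0.49. The 6 were Cyp2b9, Cyp2b13, Cyp3a16, Cyp3a44, Cyp3a41a and Cyp3a41b. The Cyp3a genes among them lie in 1 cluster, and Cyp3a41a and Cyp3a41b had nearly equal values in every liver. The 6 are therefore not independent observations. The list of CAR or PXR-inducible genes overlaps the female-biased list. There 1 of 8 tested genes passed (Cyp2b9), 7 were below 0, 4 had both LKO livers below both WT livers (Cyp2b9, Cyp2b10, Cyp2b13 and Cyp3a11), and the median was -0.35. The shares among all genes are those just given, 0.543%, 53.9% and 10.0%. On the list of male-biased genes 0 of 5 passed, 5 of 5 were below 0 with overlapping livers, and the median was -0.19. Of the 3 AHR-inducible genes 0 passed, with a median of -0.08. These lists were written with earlier results of the same livers known, and their counts are descriptions. Y-linked genes (Ddx3y, Eif2s3y, Kdm5d and Uty) were above 0 in all 4 livers.

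None of the listed regulators of these genes passed the threshold. Of 12 tested xenobiotic and hormone receptors and partners the median log2 fold change was -0.04. Groups did not overlap for 5 of the 12 (20.7% of all genes), 4 higher and 1 lower in LKO. Nr1h4, the bile acid receptor FXR, was highest of them at 38.1 and 54.3 FPKM in WT and 34.0 and 31.9 FPKM in LKO (-0.46, SE 0.33). Nr1i3, which encodes CAR, was at 16.0 and 37.3 against 9.38 and 25.0 FPKM (-0.67, SE 0.48), and Nr1i2, which encodes PXR, at 7.51 and 12.2 against 10.8 and 7.33 FPKM (-0.10). Replicate 2 was the higher liver in each group for Nr1i3, and the groups overlapped for both receptors. Ppara had the largest difference of the 12, at 1.58 and 1.80 against 2.39 and 3.34 FPKM (0.71, SE 0.35, adjusted p = 0.9999 in limma). Its groups did not overlap. Among 14 hepatocyte factors the median was -0.07, and Hnf4a was at 48.9 and 53.5 against 55.0 and 62.0 FPKM (0.19). Onecut1, at 0.927 and 0.756 against 1.47 and 1.77 FPKM, differed by 0.87 (SE 0.34, adjusted p = 0.9999 in limma), under 2-fold. Of 8 growth hormone axis genes 4 were below 0 and 4 above, and Ghr was highest at 27.1 and 37.9 against 38.4 and 28.6 FPKM. Bcl6, a repressor of female-biased genes in male liver, was at 0.292 and 0.372 FPKM in WT and 0.625 and 0.672 FPKM in LKO (0.80, SE 0.35, adjusted p = 0.9999 in limma). Its entry is a transcript of 3 exons. Cux2, a female-biased factor that activates female-biased genes, was at 0.0621 and 0.563 FPKM in WT and 0.212 and 1.82 FPKM in LKO. It had the largest difference of that list (1.24, SE 0.72, adjusted p = 0.9999 in limma), and its groups overlapped.

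The 5 electron donors had a median of 0.08, led by Pgrmc1 at 88.6 and 125 against 119 and 106 FPKM, and 0 passed. The 12 heme genes had a median of -0.11 and 0 passed. Of 6 AHR targets outside the P450 families 4 were tested and 0 passed, with Ugt1a6a at 13.7 and 21.9 against 19.8 and 18.3 FPKM. Cyp2e1, the ethanol-oxidising P450 left out by the rule, was at 455 and 673 FPKM in WT and 478 and 620 FPKM in LKO (-0.02), with overlapping groups.

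Macrophage markers were mostly above their WT values in the LKO livers. All 10 macrophage markers in the table (of 11 listed, none at 0) had log2 fold changes above 0 (5696 of 12346 genes overall), and 3 passed the threshold, where 0.437% of all genes passed higher in LKO. The 3 were Cd68 (1.47), Cd5l (1.21) and Vsig4 (1.00). Both LKO livers lay above both WT livers for 9 of the 10 (10.7% of all genes), and Timd4, at 0.444 and 0.438 against 0.353 and 1.30 FPKM, overlapped. Their sums were 48.4 and 49.6 FPKM in WT and 62.8 and 138 FPKM in LKO. LKO replicate 2, with the highest sum, had the lowest Cyp2b10 and Cyp2b13, whereas Cyp2b9 was lowest in LKO replicate 1. Erythroid markers (5 of 5, none at 0) summed to 21.9 and 40.4 FPKM in WT and 181 and 26.8 FPKM in LKO, and 1 passed the threshold, Hbb-bs (1.42), with overlapping groups and its high value in LKO replicate 1. All 8 sinusoidal endothelial markers (none at 0) had log2 fold changes below 0, with sums of 34.6 and 35.3 FPKM in WT and 26.5 and 35.3 FPKM in LKO and 0 past the threshold. Hepatocyte markers were abundant in all 4 libraries, and 0 of 9 passed. The part of these cells in the Cyp2b and Cyp3a differences was not tested.

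Near-identical copies limit the values of single members. Of the 52 members, 15 shared no 75-base window with another annotated transcript, 21 shared more than 5% and 8 more than 20%. The genes on which the Cyp2b and Cyp3a results rest shared 5.2% (Cyp2b9), 3.1% (Cyp2b10), 16.4% (Cyp2b13), 3.7% (Cyp3a11), 1.6% (Cyp3a16) and 11.0% (Cyp3a44). Cyp2b13 shared 11.2% of its windows with Gm45225, and it also shared windows with Cyp2b9, Cyp2b10 and Cyp2b23. Their transcripts were 87.5% (Cyp2b9 and Cyp2b10), 91.7% (Cyp2b9 and Cyp2b13), 91.6% (Cyp3a11 and Cyp3a16) and 73.4% (Cyp3a11 and Cyp3a25) identical. The span of Rnf170-ps overlaps the span of Cyp2b13 on the same strand, and overlap of their exons was not tested. Rnf170-ps was not among the genes that shared a 75-base window with Cyp2b13. Summed over all 52 members, the level was 2186 and 3274 FPKM in WT and 2749 and 2290 FPKM in LKO, an LKO mean of 92.3% of the WT mean. The sum is not free of the limit, because copies outside the members, such as Cyp3a41a and Cyp3a41b, share windows with members.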

How the data were processed

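Whole liver RNA of 2 WT and 2 Brg1 LKO mice was analysed, with groups and replicate numbers from the labels. According to the methods, the authors used Trimmomatic for trimming, HISAT2 for mapping to GRCm38 and Cufflinks for FPKM, while the submitters' processing notes name HISAT2 2.0.4 and StringTie 2.1.4. The methods describe stranded TruSeq libraries and the labels a BGIseq protocol. The deposited table holds 1 FPKM value per entry and liver, with no normalization between libraries stated, so a change in abundant genes shifts the others. Transcript lengths and positions came from GENCODE M21 for 98.3% of entries. Low values stepped by whole reads of known length, with 88.6% to 89.6% within 0.1 of a whole read, and gave the library totals. Single-gene reads are estimates whose precision covers counting error only.

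The test was that of limma 3.58.1 (R 4.3.3), with lmFit and trended eBayes on log2(FPKM + 0.1) for genes averaging 0.1 FPKM or more, with Benjamini-Hochberg adjustment over all 12346 genes. Tested on simulated data with 1 common spread, the procedure recovered 198 of 200 genes changed 4-fold, with 12 unchanged genes past the threshold. Other steps used Python 3.11.15 with pandas 2.3.3 and Biopython 1.88. Transcripts were compared by shared windows of 75 bases, read in the transcript direction only, and by global alignment. Members, lists, tests and motifs were chosen with earlier results of these data known. Members named were those past the threshold, the highest of each subfamily, the 6 with the highest and the 6 with the lowest log2 fold change, and those on the female-biased, AHR and CAR or PXR lists. Outside the members, Smarca4, Cyp2e1, list and marker genes past the threshold and the 1 or 2 highest of each pathway list were named. Nr1i3, Nr1i2, Ppara, Por, Onecut1, Bcl6, Cux2, Timd4, the named hepatocyte markers, Cyp2j6, Cyp2d9 and the other members and neighbours named fall outside this rule. They were picked once their values had been seen. Alternatives were pseudocounts of 1 and 0.01, other filters, 3 rescalings, eBayes without trend, a replicate block and each liver left out. No column of another series' sample was present.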

Additional observations from a re-analysis of the deposited data

How the results depend on the processing

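With 2 livers per group, no adjusted p of a member was under 0.05 in any alternative, and the intervals above are wide. A lone liver left in a group was assumed to vary like the other group. Cyp2b9 was the only member past the threshold in 7 alternatives (pseudocount of 0.01, no filter, the 3 rescalings, eBayes without trend and the replicate block). With a pseudocount of 1 there were 0 (Cyp2b9 -0.47), and 12 genes in all were past it higher and 6 lower in LKO, the Cyp2b median was -0.44 and Smarca4 was at -0.85, under 2-fold. With genes kept only from a mean of 1 FPKM there were 0 because Cyp2b9 was not tested, 30 genes in all were lower, and 1 member had both LKO livers above both WT livers. Median-ratio rescaling and quantile normalization each left 0 such members. After median-ratio rescaling 7 members had both LKO livers below both WT livers, against 8 in the main setting. Without a filter 27 genes in all were higher, and with each liver rescaled to the same sum 84 were. Quantile normalization turned Cyp2d10 to -0.070 and Cyp3a13 to -0.011, and the sum turned Cyp1a2 to 0.024 and Cyp3a25 to 0.070.

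With each liver left out in turn, 0 to 3 members were past the threshold lower in LKO (0 without WT replicate 2, and Cyp2a4, Cyp2a5 and Cyp2b10 without LKO replicate 1). Over all genes the counts were 51 to 402 higher and 27 to 319 lower, the highest without LKO replicate 1 and without LKO replicate 2. Members with both LKO livers above both WT livers numbered 3 to 23 (23 without WT replicate 2) and below 9 to 36 (36 without WT replicate 1), where a lone liver makes either easier to meet. Medians ranged from -0.40 to 0.48 for Cyp1a, -0.69 to 0.53 for Cyp2a, -0.96 to -0.38 for Cyp2b, -0.30 to 0.36 for Cyp2c, -0.24 to 0.24 for Cyp2d, -0.48 to 0.078 for Cyp2j and -0.41 to -0.059 for Cyp3a. Log2 fold changes that crossed 0 ranged from -0.27 to 0.60 (Cyp1a1), -0.56 to 0.40 (Cyp1a2), -1.29 to 0.93 (Cyp2a4), -1.31 to 0.94 (Cyp2a5), -0.77 to 0.30 (Cyp2c29), -0.073 to 0.63 (Cyp2c37), -0.070 to 0.59 (Cyp2c54), -0.26 to 0.42 (Cyp2c69), -0.17 to 0.79 (Cyp2c70), -0.19 to 0.31 (Cyp2d10), -0.36 to 0.11 (Cyp2f2), -0.47 to 0.16 (Cyp2j5), -0.73 to 0.026 (Cyp2r1), -0.51 to 0.035 (Cyp2u1), -0.34 to 0.36 (Cyp3a13) and -0.41 to 0.34 (Cyp3a25). Cyp2b9, Cyp2b10, Cyp2b13, Cyp2b23, Cyp3a11, Cyp3a16 and Cyp3a44 stayed below 0 in each.

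The labels number the livers 1 and 2 in both groups, but livers with the same number did not deviate together (r = 0.031 across 12346 genes, which are not independent replicates), and over the 45 tested members r was -0.642 (-0.617 to -0.667 after the rescalings), so the numbers were not read as pairs. With the replicate block 1 member, Cyp2b9, and 108 genes in all (49 higher, 59 lower) were past the threshold.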

Other observations

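The 7 members below the filter had between 0 and 26 estimated reads in a liver. Cyp2b19 had 18 and 26 reads in WT and 20 and 8 in LKO. Cyp2c55, a CAR and PXR target best known from the colon, had an estimated 1 and 15 reads in WT and 6 and 1 in LKO. Cyp2g1, the olfactory P450, had 0 and 4 against 3 and 1 reads, and Cyp2t4 had 3 and 5 against 4 and 1. Cyp2j7 had 6 and 6 against 4 and 0 reads, and Cyp2j13 12 and 8 against 12 and 16. Cyp2s1 had 6 and 23 reads in WT and 25 and 4 in LKO, so the high livers were those of Cyp2a5. At or under 3 reads no ratio was taken.

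Among 33 genes of the other P450 families, 28 were tested and the median log2 fold change was -0.05. Of these, 1 passed the threshold (0.980% of all genes in either direction), Cyp17a1, a steroid hydroxylase and lyase. It was at 3.56 and 2.48 FPKM in WT and 0.324 and 0.858 FPKM in LKO (-2.27, SE 0.41, adjusted p = 0.541 in limma).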
